A study of Mus musculus with 8 samples.

Results

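The vacuolar ATPase (V-ATPase) is the proton pump of endosomes, lysosomes and phagosomes. Transcripts of 10 of its subunits were examined in CD103+ CD11b+ conventional dendritic cells (cDC), the antigen-carrying cells that reach the mesenteric lymph nodes from the intestine. The 10 genes, of 22180 measured, were Atp6v0a1, Atp6v0a2, Tcirg1, Atp6v0d1, Atp6v0d2, Atp6v1a, Atp6v1b2, Atp6v1e1, Atp6v1h and Atp6ap1. Each was read from a probe set, a group of array probes summarised as 1 value, that the platform's annotation gives to that gene only. Where a gene had several such sets, the one with the highest mean over the 8 arrays was used. This applied to Atp6v1b2 alone. The genes were selected on their place in the pump and with earlier results of the transgenic against wild-type difference known, among them that of Atp6v0a1, and probe sets were chosen by mean level. The differences of the 10 genes between the groups are therefore a description, and no test is drawn from them.

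Of the 8 arrays, 4 held cDC of C57BL6 mice carrying the hBcl-2 transgene, human BCL2 expressed from the CD11c promoter, and 4 held cDC of wild-type control littermates without it. All mice were 8-week-old males on control chow, and the CD11c promoter is active in dendritic cells and also in some other myeloid and lymphoid cells. An array held a pool of 2 to 3 samples, and the labels do not say which animals entered which pool, so the errors measure the spread between 4 pools per group. Values are log2 signals from RMA, a method that makes the arrays' distributions alike, so 1 unit is a 2-fold difference and a level of 1 gene cannot be set against that of another. In bulk samples such as these, fewer cells of a kind and less RNA per cell cannot be told apart. All 9 measured marker genes of cDC had signals above the median gene, a brightness used here only as a guide to background. For Flt3 the means were 11.11 in wild-type and 10.74 in transgenic arrays, for Zbtb46 8.79 and 8.37, for H2-Ab1 13.00 and 12.75, and for Ccr7 12.99 and 13.06. The genes of the sorting markers, Itgae for CD103 and Itgam for CD11b, had wild-type means of 5.66 and 5.57, and probe sets that differ in brightness cannot show from this whether their transcripts were rare. Transgenic replicate 4 differed most from its group: its correlation with the other transgenic arrays averaged 0.974, and theirs averaged 0.980 to 0.983.

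The pump has a soluble V1 sector, which hydrolyses ATP, and a membrane V0 sector, through which protons pass. V1 can dock to V0 or leave it, and this assembly sets how strongly a compartment is acidified. Dendritic cells are known for mild and regulated acidification of phagosomes, which limits the destruction of antigen and leaves peptides for MHC loading. The a subunit of V0 forms the path of the protons and exists in isoforms that direct the pump to different membranes.

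Among the isoforms of the a subunit, the level of Atp6v0a1 was lower on every transgenic array, while Atp6v0a2 and Tcirg1 overlapped between the groups. Atp6v0a1 (isoform a1) gave 9.59, 9.83, 9.72 and 9.70 on wild-type replicates 1 to 4 and 8.78, 8.10, 8.65 and 7.37 on transgenic replicates 1 to 4. The groups did not overlap, and transgenic replicate 4 was the lowest. The wild-type mean was 9.71 ± 0.096 and the transgenic mean 8.22 ± 0.64 (SD, n = 4 each). This is a difference of -1.49 (SE 0.26), or a 2.81-fold lower signal. It had rank 14 from the bottom among the differences of all 22180 genes. In the fit over all genes it was among the genes called at an adjusted p below 0.05, and it was not called without wild-type replicate 1 (difference -1.53), 2 (-1.45), 3 (-1.48) or 4 (-1.49) or without transgenic replicate 2 (-1.45). Without transgenic replicate 4 the difference was -1.20 and the gene was called.

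Atp6v0a2 encodes isoform a2, known from the Golgi apparatus and endosomes. It gave 7.48, 7.65, 7.54 and 7.73 in wild-type and 7.78, 7.98, 7.87 and 7.00 in transgenic arrays. Transgenic replicates 1 to 3 lay above all 4 wild-type arrays, and replicate 4 lay below all of them. Over all arrays the difference was 0.06 (SE 0.20), and without transgenic replicate 4 it was 0.28. Tcirg1 encodes isoform a3, which lysosomes carry and which osteoclasts need to acidify bone. It gave 7.26, 7.98, 7.83 and 8.14 in wild-type and 8.15, 7.81, 7.78 and 7.36 in transgenic arrays. Both groups covered nearly the same range, with a difference of -0.03 (SE 0.21).

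The balance of the a isoforms within an array differed accordingly. The log2 signal of Atp6v0a1 minus that of Atp6v0a2 averaged 2.11 ± 0.096 over the wild-type and 0.57 ± 0.39 over the transgenic arrays (SD, n = 4 each), a change of -1.55. The wild-type arrays ran from 1.98 to 2.18 and the transgenic arrays from 0.12 to 1.00. Against Tcirg1 the change was -1.46, from 1.91 ± 0.32 to 0.45 ± 0.38 (SD, n = 4), again with no overlap. Atp6v0a2 minus Tcirg1 moved by 0.09 and overlapped. Only the changes can be read here, as the probe sets of different genes have their own brightness.

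**Figure D1:**
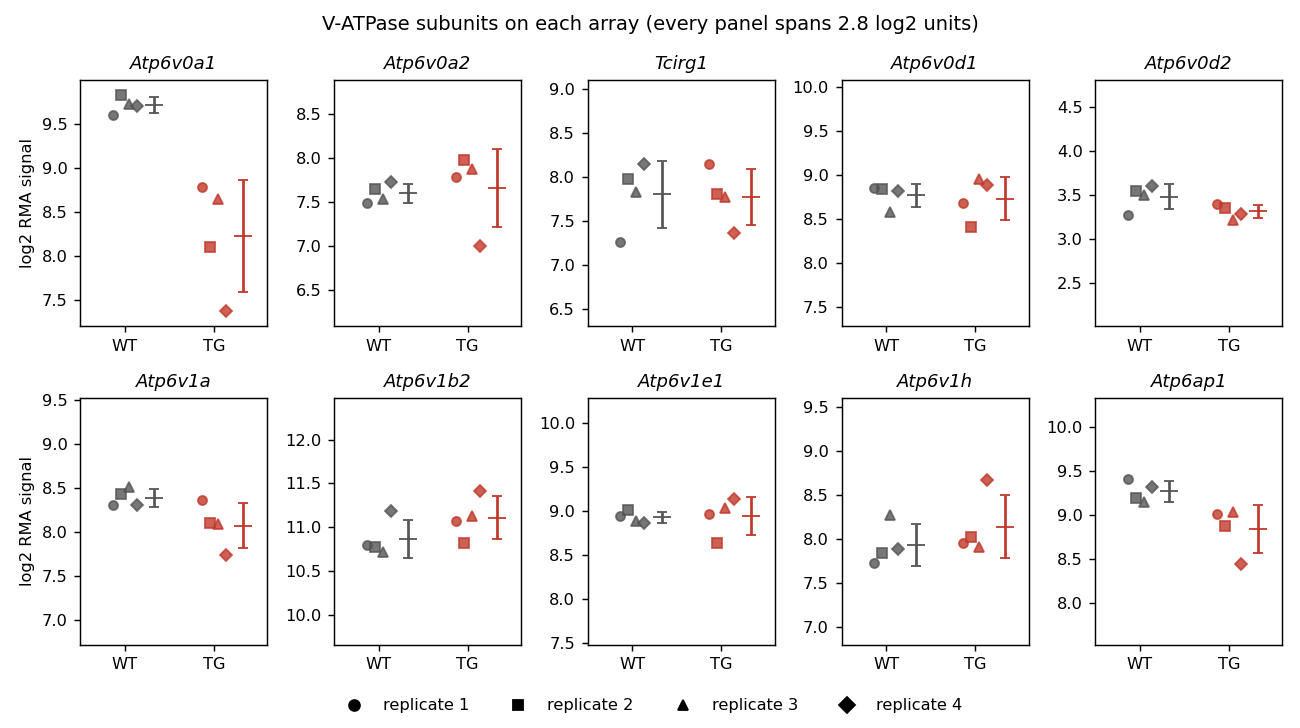
Log2 RMA signal of each of the 10 V-ATPase subunits (y axis) on the 4 wild-type (WT, grey) and 4 hBcl-2 transgenic (TG, red) arrays, with 1 symbol per array and the mean and SD of the group beside them. The groups are apart for Atp6v0a1 (8.78 and below against 9.59 and above) and, narrowly, for Atp6ap1 (9.03 and below against 9.16 and above), and overlap for the other 8.

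The d subunit links the ring of V0 to the stalk of the pump. Its widespread isoform, Atp6v0d1, gave 8.85, 8.84, 8.57 and 8.81 in wild-type and 8.68, 8.41, 8.95 and 8.88 in transgenic arrays. The transgenic arrays lay on both sides of the wild-type ones, and the difference was -0.04 (SE 0.14). Atp6v0d2, the isoform known from osteoclasts and macrophages, gave 3.27, 3.55, 3.51 and 3.61 in wild-type and 3.40, 3.36, 3.22 and 3.29 in transgenic arrays. At this brightness, above that of only 8.82% of all genes, signal and background are hard to separate, and the difference was -0.17 (SE 0.11).

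In the V1 sector, the catalytic subunit A was slightly lower and the nucleotide-binding subunit B2 slightly higher on average in transgenic arrays, both with overlap. Atp6v1a, which encodes subunit A, gave 8.31, 8.44, 8.51 and 8.31 in wild-type and 8.37, 8.10, 8.10 and 7.74 in transgenic arrays. Transgenic replicate 1 lay within the wild-type range and the other 3 below it. The difference was -0.31 (SE 0.14), and -0.20 without transgenic replicate 4. Atp6v1b2, which encodes the B isoform of most tissues, gave 10.80, 10.78, 10.72 and 11.19 in wild-type and 11.07, 10.82, 11.13 and 11.42 in transgenic arrays. The difference was 0.24 (SE 0.15), and 0.14 without transgenic replicate 4, the only one to exceed every wild-type array. A second, dimmer probe set of Atp6v1b2 gave 9.84 ± 0.18 and 10.09 ± 0.26 (SD, n = 4), a difference of 0.26 (SE 0.15), so both sets put the mean on the same side.

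Atp6v1e1 encodes subunit E of the outer stalks that hold the rotor housing in place. It gave 8.94, 9.005, 8.88 and 8.86 in wild-type and 8.96, 8.63, 9.03 and 9.13 in transgenic arrays. Its difference of 0.01 (SE 0.13) was the smallest in size of the 10. Atp6v1h encodes subunit H, which couples ATP hydrolysis to proton flow and silences V1 when it is detached. It gave 7.73, 7.84, 8.28 and 7.88 in wild-type and 7.95, 8.02, 7.91 and 8.67 in transgenic arrays. Transgenic replicates 1 to 3 lay inside the wild-type range, and only replicate 4 lay above it. The difference was 0.20 (SE 0.19), and without transgenic replicate 4 it was 0.03.

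Atp6ap1 encodes the accessory subunit Ac45, a glycoprotein of V0 that takes part in assembly and sorting of the pump. It gave 9.42, 9.20, 9.16 and 9.32 in wild-type and 9.02, 8.87, 9.03 and 8.45 in transgenic arrays. All transgenic arrays lay below all wild-type arrays, by a gap of 0.12 between the nearest of them. The means were 9.27 ± 0.12 for wild type and 8.84 ± 0.27 for transgenic arrays (SD, n = 4 each). Their difference was -0.43 (SE 0.15), and -0.30 without transgenic replicate 4. It was not called in the fit over all genes, with all arrays or in any of 17 alternatives.

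In the fit over all genes, limma at an adjusted p below 0.05, 1 of the 10 subunits was called, Atp6v0a1, against 1.69% of all genes. The groups did not overlap for 2 of the 10, against 8.94% of all genes, and both were lower, against 4.94%. The mean was lower in transgenic arrays for 6 and higher for 4, and 50.3% of all genes were lower. The median difference of the 10 was -0.03, against -0.0016 for all genes. The sign turned for Atp6v0a2, Tcirg1, Atp6v0d1 and Atp6v1e1 when some of the arrays were left out, for Tcirg1 and Atp6v1e1 also with array weights, and for the other 6 in none of the alternatives. As the comparison was known when the genes were chosen, nothing is read from these counts.

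The transgenic pools were more spread than the wild-type pools for 8 of the 10 subunits, against 62.1% of all genes. The SD was 6.66 times as large for Atp6v0a1, 4.10 times for Atp6v0a2 and 3.43 times for Atp6v1e1, and smaller for Tcirg1 and Atp6v0d2. Transgenic replicate 4 was the array farthest from the transgenic mean for 7 of the 10 and for 40.8% of all genes. On it the deviation from the group mean was -0.85 for Atp6v0a1, -0.66 for Atp6v0a2, -0.41 for Tcirg1, -0.40 for Atp6ap1 and -0.34 for Atp6v1a, while it was 0.54 for Atp6v1h and 0.31 for Atp6v1b2. Without it, 4 of the 10 were more spread than in wild type, against 47.9% of all genes.

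**Figure D2:**
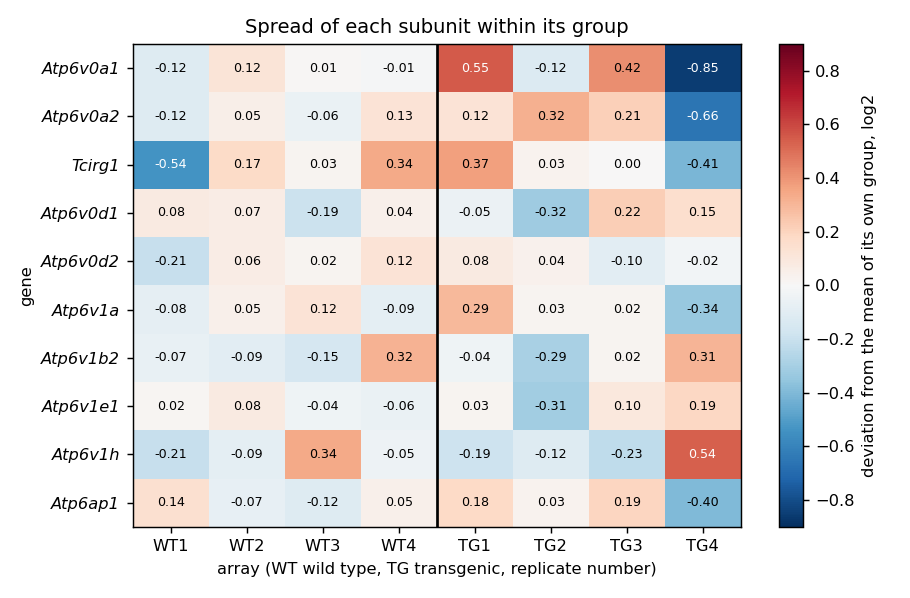
Deviation of each subunit (rows) from the mean of its own group on each array (columns, log2, colour and printed value), with wild-type arrays left of the line and transgenic arrays right of it. The lowest value is -0.85, Atp6v0a1 on transgenic replicate 4, and the highest is 0.55, Atp6v0a1 on transgenic replicate 1. Tcirg1 on wild-type replicate 1 is at -0.54 and Atp6v1h on transgenic replicate 4 at 0.54.

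Within the groups the subunits did not vary as a block. Over the 8 arrays, after the group means were removed, the correlations of the 45 pairs ran from -0.93 (Atp6v1h and Atp6ap1) to 0.88 (Atp6v0a1 and Atp6v1a), with a median of -0.04, and 21 were positive. Pearson's r was 0.86 for Atp6v0d1 with Atp6v1e1 and 0.84 for Tcirg1 with Atp6v0d2. Without transgenic replicate 4 these were 0.84 and 0.95, while Atp6v0a1 with Atp6v1a was at 0.59 and Atp6v1h with Atp6ap1 at -0.74. Only 26 of the 45 pairs kept their sign without that array: Atp6v0a1 with Atp6v0a2 went from 0.78 to -0.40, and Atp6v0a1 with Atp6v1e1 from -0.14 to 0.88. The values of a pair come from the same arrays, and these correlations are a description over 8 points.

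The stretch just before a transcript start was looked at for 6 of the 10 genes, those with an entry in a set of promoter sequences for GRCm38.p6. This set is separate from RefSeq's table of genes. In the 250 bases before each start, both strands were searched for the E-box CACGTG, its extended form TCACGTGA, the GC box GGGCGG, the CCAAT box CCAAT and the TATA box TATAAA. TCACGTGA contains CACGTG. The MiT/TFE transcription factors, which drive many lysosomal genes, are known to bind such E-boxes. Of 32851 windows of this length in the set, 6.02% hold the E-box, 0.785% its extended form, 32.7% the GC box, 33.8% the CCAAT box and 12.4% the TATA box. Of the 6 genes, only Atp6v1a had an E-box, in the extended form, 131 bases before the listed start. Among the other V-ATPase subunits with an entry, 13 in all, only Atp6v0b had an E-box.

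The windows of Atp6v1a and Atp6v0a1 lie inside the span of their gene, before starts that are 443 and 976 bases from the outermost one, so only 30 bases around a match are shown, 5′ to 3′ on the gene's strand. They show the E-box form of Atp6v1a at chr16:44139373-44139402 (minus strand) and the only match of Atp6v0a1, a GC box, at chr11:101010148-101010177 (plus strand), with the motif in capitals.
Atp6v1a: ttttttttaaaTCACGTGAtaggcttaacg
Atp6v0a1: aggaGGGCGGtaactcactggaggctgtca

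The whole windows of Atp6ap1 (chrX:74296847-74297096, plus strand) and Atp6v1e1 (chr6:120822699-120822948, minus strand) set a gene with groups apart beside the one with the smallest difference. Capitals mark the GC, CCAAT and TATA boxes on either strand; the TATA match of Atp6v1e1 reads on both strands.
Atp6ap1: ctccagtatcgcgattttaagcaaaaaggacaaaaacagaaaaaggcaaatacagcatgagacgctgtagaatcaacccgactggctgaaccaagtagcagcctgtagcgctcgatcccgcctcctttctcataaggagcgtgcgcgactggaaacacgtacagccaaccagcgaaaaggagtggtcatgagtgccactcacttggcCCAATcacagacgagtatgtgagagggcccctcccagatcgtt
Atp6v1e1: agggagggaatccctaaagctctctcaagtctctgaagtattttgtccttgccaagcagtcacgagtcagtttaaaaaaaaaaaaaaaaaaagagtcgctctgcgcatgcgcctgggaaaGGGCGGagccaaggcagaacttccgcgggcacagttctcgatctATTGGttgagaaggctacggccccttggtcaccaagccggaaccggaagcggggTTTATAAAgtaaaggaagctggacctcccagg
Atp6ap1 holds a CCAAT box and neither a GC nor a TATA box, and Atp6v1e1 holds all 3. A match is a description of the letters and not a site in use.

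The other subunits of the pump did not pass the test. Of 17 further genes of the pump listed, 16 were measured, and 0 rose and 0 fell by limma over all genes, with 4 at an unadjusted p below 0.05, against 13.2% of all genes. Atp6v0c, which encodes the proton-carrying ring subunit, was not analysed here. Means were higher for 8 and lower for 8, with a median of -0.02. The highest moderated statistics belonged to Atp6v1g2, an isoform of stalk subunit G known from neurons, and to Atp6v1f, a subunit of the V1 rotor. Atp6v1g2 averaged 6.72 ± 0.20 over wild-type and 7.22 ± 0.24 over transgenic arrays (SD, n = 4 each), a difference of 0.50 (SE 0.15; limma adjusted p = 0.145). Atp6v1f was at 0.33 (SE 0.14; limma adjusted p = 0.350). The lowest were Atp6v1e2, an isoform of subunit E known from testis, at -0.29 (SE 0.12; limma adjusted p = 0.326), and Rnasek, a small membrane protein of V0, at -0.28 (SE 0.24; limma adjusted p = 0.702). Rnasek was at 11.46 to 11.65 on 3 transgenic arrays and at 10.43 on replicate 4, without which its difference was 0.00. Isoforms known from kidney and other epithelia, Atp6v0a4, Atp6v1b1, Atp6v1c2 and Atp6v1g3, had differences of -0.05 to 0.03 at levels near or below that of the median gene.

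For counts by sector, Atp6ap1, Atp6ap2, Atp6ap1l and Rnasek were taken as accessory genes and not as V0, though Atp6ap1 and Rnasek are described above with V0. With the 10 subunits included, 3 of 9 V0 genes and 8 of 13 V1 genes had a higher mean in transgenic arrays. So did 1 of 4 accessory genes. Leaving out the 10, these were 2 of 4, 5 of 9 and 1 of 3. The median difference was -0.04 in V0 and 0.03 in V1. Atp6v0a1 alone lay below -0.5 among all 26.

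**Figure D3:**
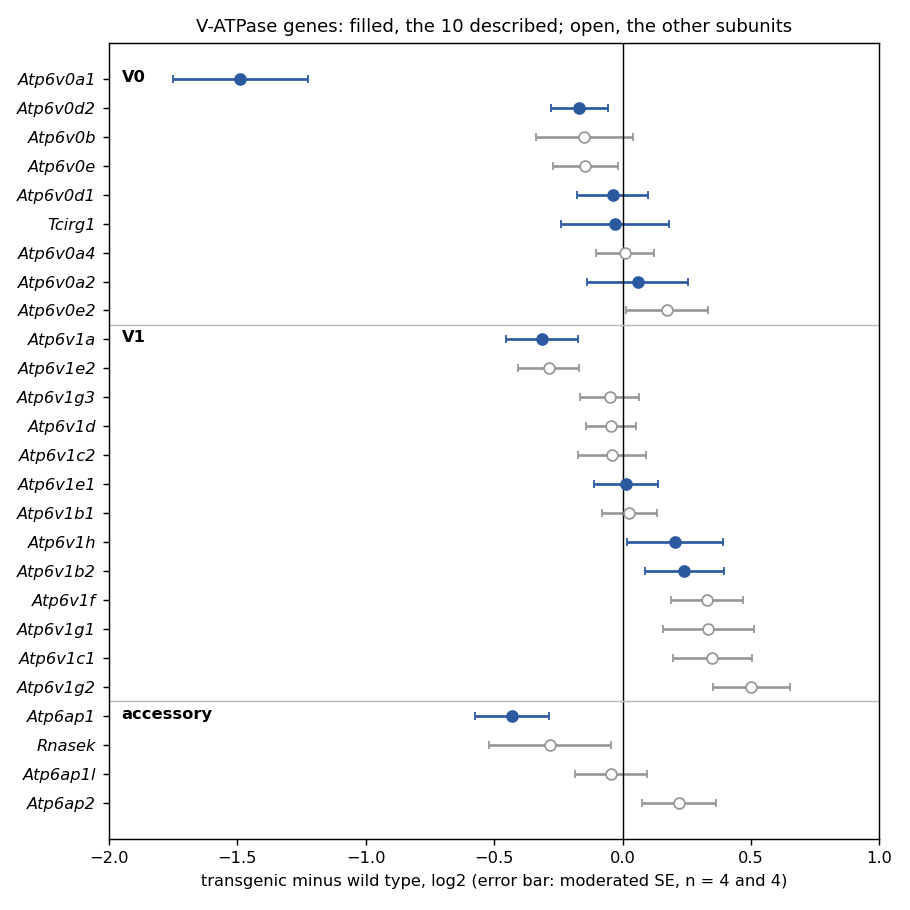
Difference between transgenic and wild-type arrays (x axis, log2, with the moderated SE, 4 arrays per group) for the 26 measured V-ATPase genes, ordered within the V0 sector, the V1 sector and the accessory genes. Atp6v0a1 stands at -1.49 and the other 25 lie between -0.43 and 0.50.

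Of the genes that act with the pump on lysosomes, Tfe3 was called lower and the hydrolase genes Galc and Sgsh higher. The calls of Tfe3 and Sgsh were lost in 11 and 12 of 17 alternatives. In 7 further lists, 83 of 90 genes were measured, of which 2 rose and 1 fell by limma over all genes, against 0.839% and 0.848% of all genes, and the median difference was 0.02. Tfe3, one of the MiT/TFE factors, fell from 8.13 ± 0.04 to 7.52 ± 0.22 (SD, n = 4), a difference of -0.61 (SE 0.13; limma adjusted p = 0.0423). Its transgenic arrays were at 7.69, 7.60, 7.61 and 7.19 and its wild-type arrays at 8.09, 8.16, 8.10 and 8.17, so the groups did not overlap. The other 3 factors did not pass, and Tfeb, the best known of them, was at -0.18 (SE 0.21), Tfec at -0.06 (SE 0.24) and Mitf at 0.09 (SE 0.13). The direction of Tfec turned without wild-type replicate 4 and with array weights, and those of Tfeb and Tfec without transgenic replicate 4.

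Of 20 measured acid hydrolases other than cathepsins, 2 rose, 0 fell and 18 did not pass, against 1.69% of all genes called, with a median of 0.12. An unadjusted p below 0.05 was found for 8 of the 20, against 13.2% of all genes, and the groups did not overlap for 6, against 8.94%. Galc, which encodes the galactosylceramide-degrading enzyme, rose from 4.35 ± 0.24 to 5.49 ± 0.07 (SD, n = 4; limma adjusted p = 0.00441). Both levels were near that of the median gene or below, so the size of its difference of 1.15 (SE 0.13) is uncertain. Sgsh, a heparan sulfate sulfatase, rose from 5.52 ± 0.07 to 6.13 ± 0.24 (SD, n = 4), a difference of 0.62 (SE 0.13; limma adjusted p = 0.0492). Fuca1 was at 0.50 (SE 0.12; limma adjusted p = 0.0666), Psap at 0.52 (SE 0.13; limma adjusted p = 0.0888) and Gusb at 0.46 (SE 0.13; limma adjusted p = 0.117). Their groups did not overlap, and they did not pass. Ids, with overlap, was at 0.46 (SE 0.14; limma adjusted p = 0.164). At the other end, Gaa, which degrades lysosomal glycogen, was at -0.31 (SE 0.10) and Arsa at -0.55 (SE 0.24), and neither passed. Galc passed in all 16 alternatives that held it. Tfe3 passed in 6 of 17 and Sgsh in 5 of 17. Both were lost without each wild-type array (adjusted p 0.104 to 0.116 for Tfe3 and 0.108 to 0.136 for Sgsh in limma) and without transgenic replicate 1 (0.0568 and 0.0782), 2 (0.0774 and 0.0649) or 3 (0.0703 and 0.0878).

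The phagosomal NADPH oxidase consumes protons in the lumen and so opposes the pump in dendritic cells. By limma 0 of its 6 measured genes passed, with 2 at an unadjusted p below 0.05, against 13.2% of all genes, and a median difference of -0.55. Ncf4 was at -0.53 (SE 0.13; limma adjusted p = 0.0844) and Ncf1 at -0.57 (SE 0.15; limma adjusted p = 0.109), the 2 genes of the list whose groups did not overlap, against 8.94% of all genes. The lowest differences of the list were those of Cybb, the catalytic subunit, at -0.96 (SE 0.46; limma adjusted p = 0.413) and Rac2 at -0.72 (SE 0.39; limma adjusted p = 0.488), both with overlap. For Cybb, transgenic replicate 4 was at 6.41 and replicates 1 to 3 were at 8.25 to 9.05. For Rac2, replicate 4 was at 8.25 and replicates 1 to 3 were at 8.81 to 10.24. Much of the size of both differences therefore rests on replicate 4. Cyba was at 0.13 (SE 0.26) and Rac1 at 0.01 (SE 0.10). The sign of Cyba turned without transgenic replicate 3, and that of Rac1 without wild-type replicates 3 or 4 or transgenic replicate 1.

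Assembly and regulatory factors of the pump did not pass either, 0 of 12 by limma with 1 at an unadjusted p below 0.05, against 13.2% of all genes. That was Ncoa7, whose product binds V1, at 8.53 ± 0.22 and 7.97 ± 0.08 (SD, n = 4), a difference of -0.56 (SE 0.13; limma adjusted p = 0.0627). It passed when only genes at or above the median gene were tested (adjusted p = 0.0460 in limma). Dmxl2 was at -0.17 (SE 0.12), the assembly factor Vma21 at 0.10 (SE 0.11) and Oxr1 at 0.23 (SE 0.15), and at 0.088 without transgenic replicate 4. Of 15 genes of mTORC1 nutrient sensing, for which the pump is a docking partner on lysosomes, 0 passed by limma and 1 had an unadjusted p below 0.05, against 13.2% of all genes, Flcn at 0.25 (SE 0.11). The others at the ends of that list were Lamtor2 at 0.20 (SE 0.11), Lamtor1 at -0.32 (SE 0.22) and Fnip2 at -0.28 (SE 0.18). Without transgenic replicate 4 these were 0.13, -0.081 and -0.10.

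Among 14 lysosomal ion channels and exchangers 0 passed by limma, with 2 at an unadjusted p below 0.05, against 13.2% of all genes, and 2 without overlap, against 8.94%. Slc9a9, an endosomal sodium-proton exchanger, was at 0.60 (SE 0.18; limma adjusted p = 0.144) with groups that did not overlap. Tpcn1, an endolysosomal cation channel, was at 0.76 (SE 0.33), and at 1.13 without transgenic replicate 4, where it passed (adjusted p = 0.0264 in limma). The chloride-proton exchangers Clcn4 and Clcn5 were at -0.24 (SE 0.12) and -0.20 (SE 0.17). Of 12 lysosomal membrane and lipid-handling genes 0 passed by limma, with 3 at an unadjusted p below 0.05, against 13.2% of all genes, and a median of 0.16. Laptm4a was at 0.38 (SE 0.10; limma adjusted p = 0.117) and Lamp1, a main protein of the lysosomal membrane, at 0.32 (SE 0.11; limma adjusted p = 0.196), the 2 of this list without overlap, against 8.94% of all genes. Cd63 was at -0.11 (SE 0.10) and Tmem192 at -0.10 (SE 0.15).

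**Figure D4:**
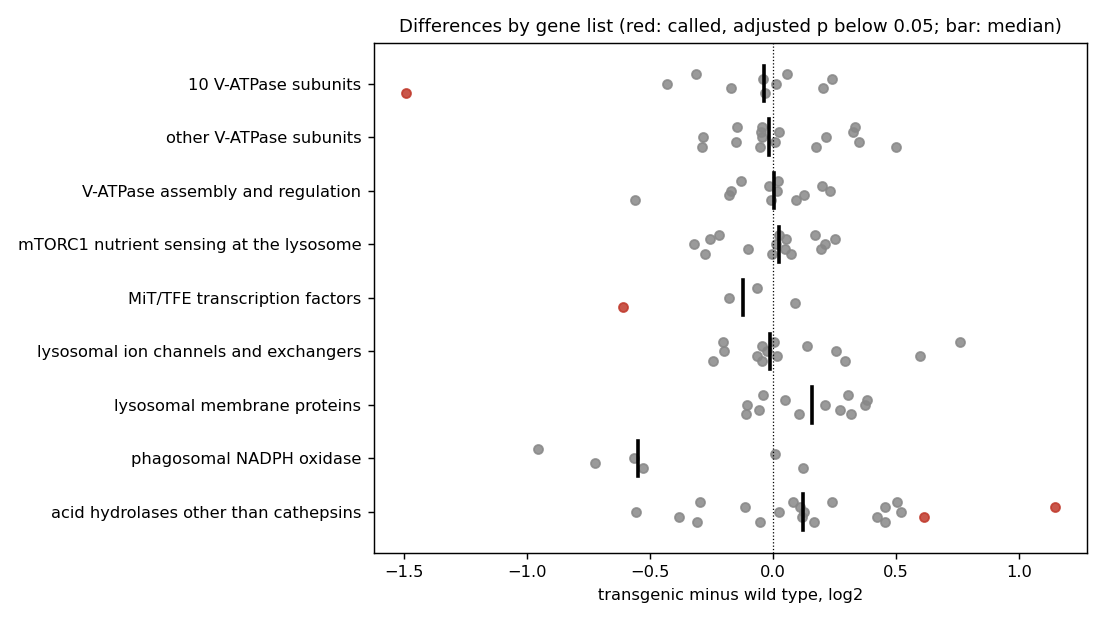
Difference between transgenic and wild-type arrays (x axis, log2) for each measured gene of the 9 lists, with the median of a list as a black bar and called genes in red. Red points are Atp6v0a1 at -1.49, Tfe3 at -0.61, Sgsh at 0.62 and Galc at 1.15, and the NADPH oxidase list has the lowest median, -0.55.

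The genes whose values followed Atp6v0a1 most closely within the groups were Pmm2, Slc6a6, Gpr108, Prex1, Ntng2 and Atxn1. Likeness was Pearson's r of the deviations from the group means over the 8 arrays, and it ran from 0.98 to 0.99 for these 6. As Atp6v0a1 had an SD of 0.64 over transgenic and 0.096 over wild-type arrays, r rests mostly on the 4 transgenic arrays. Without transgenic replicate 4 it was 0.98 for Pmm2, Slc6a6 and Gpr108, 0.99 for Prex1, 0.94 for Ntng2 and 0.93 for Atxn1. These 6 were picked as the highest of all genes. Predicted genes, Riken clones, small RNAs and olfactory and vomeronasal receptors were left out by their symbols. The values come from 8 points on shared arrays, so they describe these arrays only. The differences of the 6 genes between the groups ran from -0.88 (Ntng2) to -0.23 (Gpr108).

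Marker genes of other cells moved with the groups in part. The mean level of the 9 measured macrophage markers was 5.62 to 5.71 on wild-type and 5.77 to 6.08 on transgenic arrays, and 4 of the 9 were dimmer than the median gene. Adgre1 (F4/80) was called, at 6.12 ± 0.33 and 7.41 ± 0.30 (SD, n = 4). It was the only called gene of this list, and its difference of 1.29 was the largest. Much of the distance between the groups in the mean level comes from it, and the median difference of the list was 0.11. C1qa was at -0.17, lower on every transgenic array, and Fcgr1 at -0.03. The rest of the list ran from 0.07 (Mertk) to 0.33 (Cd68), each with overlap. For the 7 measured monocyte markers the ranges were 5.98 to 6.54 and 6.34 to 7.50, and Csf1r was called. Chil3 was at -0.16 and Lyz2 at -0.08, and the rest of that list ran from 0.01 (Fcgr3) to 1.81 (Ly6c2). The groups overlapped for Ly6c2, which did not pass (SE 0.77, limma adjusted p = 0.346). It gave 8.28, 10.38, 5.81 and 7.11 on transgenic replicates 1 to 4. Ccr2 gave 7.48, 7.85, 5.70 and 5.30 on them, so the height of both rests on some of the pools. For the 9 measured cDC markers the ranges were 10.44 to 10.57 and 10.15 to 10.55, with the lowest value on transgenic replicate 4. Among these, Flt3 at -0.37 (SE 0.16; limma adjusted p = 0.350) and H2-Ab1 at -0.25 (SE 0.11; limma adjusted p = 0.352) were lower on every transgenic array. Zbtb46 was at -0.42 (SE 0.16; limma adjusted p = 0.283) with overlap, and none of the 3 passed. The rest of the cDC list was mixed and overlapped. Irf4 was at -0.11, Batf3 at -0.10 and Dpp4 at -0.09, while Ccr7 was at 0.07, Itgax at 0.17 and Sirpa at 0.25. The 7 osteoclast markers, of interest for Tcirg1 and Atp6v0d2, were at 5.23 to 5.48 and 5.25 to 5.54, and 5 of them, Ctsk and Calcr among these, were dimmer than the median gene. Acp5, which encodes tartrate-resistant acid phosphatase, was at 9.21 ± 0.025 in wild-type and 9.77 ± 0.37 in transgenic arrays (SD, n = 4 each). Its groups did not overlap, and it did not pass (difference 0.56, SE 0.17; limma adjusted p = 0.150). The mean levels of plasmacytoid dendritic, T and NK or innate lymphoid cell markers overlapped, with 1 called gene each, Bst2, Cd4 and Klrd1. These called genes were higher in transgenic arrays. So were most genes of the plasmacytoid and NK lists, while most T cell markers were lower. Spib, a plasmacytoid marker, was at -0.64 without overlap (limma adjusted p = 0.0791), and Tcf4 was at -0.21. All others of the plasmacytoid list were higher, from 0.34 (Ccr9) to 0.76 (Bst2), and the median of the list was 0.42. Of the T cell markers, Cd8b1 was at -0.45, Cd3e at -0.30, Cd3g at -0.24 and Cd28 at -0.19, while Cd3d was at 0.16. Gzmb of the NK list was at -0.31. The mean levels of B cell, neutrophil, stromal and epithelial markers overlapped, with 0 genes called by limma. The part of these cells, or of cDC themselves, in the difference of Atp6v0a1 was not tested.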

How the data were processed

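The deposited values are log2 signals per probe set on 8 arrays, made by the authors with Partek and RMA as the submitters' processing notes list them. Versions, filters and the build were not given in the sources used here. Per the labels' protocols, 2.5 ng of RNA was reverse transcribed and amplified before hybridisation, which can distort the levels of rare transcripts. As RMA makes arrays more alike, a shift of all genes would not be seen. The deposited arrays still differed in distribution. Transgenic replicate 4 had a median of 5.15 and an SD over probe sets of 2.00, and the other arrays had 5.04 to 5.10 and 2.07 to 2.11. Its array weight was 0.35, and those of the others were 0.92 to 1.43. Arrays have no read depth, and their number limits the precision.

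Of 34390 probe sets, 23521 name 1 gene in the platform's annotation, 1814 several and 9055 none. The first kind was used, with the brightest set per gene, and gave 22180 genes, of which 21994 had a gene number in RefSeq's table for GRCm38.p6. No signal filter was applied, and 0 columns of values were left out.

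Transgenic minus wild type was fitted with limma 3.58.1 in R 4.3.3 (lmFit, eBayes; Benjamini-Hochberg over all genes; threshold 0.05), without covariates. Data were simulated for this comparison (22180 genes, 200 changed, 10 simulations). In them 30.7% of 1.5-fold, 73.6% of 2-fold and 94.5% of 3-fold changes were recovered, and 4.88% of calls were false. The simulated noise was independent between genes and had the same SD in both groups. The wider spread of the transgenic arrays was not simulated, so these shares may not hold for the real arrays. The subunits and gene lists were chosen with earlier results of these data known. Named were the 10 subunits, and from each other list the genes past the threshold and the 2 highest and 2 lowest by moderated statistic, plus the 6 genes most like the subunit with the largest difference. Cell markers were named by list. Itgae, Itgam, Atp6v0b, Cybb, Rac2, Fuca1, Psap, Gusb, Ids and the epithelial pump isoforms were named after their values were seen. Alternatives were other variance moderation, a filter on dim genes, other normalization, other handling of probe sets, array weights (statmod 1.5.0), the replicate number as a block and leaving out each array. Figures used matplotlib 3.10.9 in Python 3.11.15.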

Additional observations from a re-analysis of the deposited data

Results flagged for a closer look

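In 5 of the 84 groups of 4 arrays examined, 1 array lay far from the other 3. The groups were those of the 10 subunits and of the 32 other genes named by rule. Far was a gap above Dixon's 95% critical value, as a share of the group's range, where chance gives about 1 in 20 groups. Atp6v0d1 was at 8.57 on wild-type replicate 3 and at 8.81 to 8.85 on the other wild-type arrays. Atp6v1h was at 8.67 on transgenic replicate 4 and at 7.91 to 8.02 on the other transgenic arrays. Rnasek was at 10.43 on transgenic replicate 4 and at 11.46 to 11.65 on the others, and Lamp1 was at 12.37 there and at 12.65 on each of the others. Arsa was at 6.12 on wild-type replicate 3 and at 6.95 to 7.01 on the other wild-type arrays.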

How the results depend on the processing

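Over 17 alternatives the difference of Atp6v0a1 ran from -1.67 to -1.20, and it was called in 12. For the 10 subunits, 169 of 169 alternative values lay within 1 SD of the reported ones, where SD is the root mean square of the SDs of both groups. This covers the lost calls of Atp6v0a1 and the turned signs of 4 subunits named above, and is wider than the wild-type SD for 8 of the 10. The count of subunits called was 0 to 1 when each array was left out in turn, and 0 of the other subunits were called in any alternative. The count of all genes called was 374, and 106 to 379 with each array left out: 106 to 133 without a wild-type array, 187 to 246 without transgenic replicates 1 to 3 and 379 without replicate 4. In the lists of genes that act with the pump it was 3, against 1 with a trended prior, 1 with a trended and robust prior and 1 to 5 with each array left out (5 without transgenic replicate 4, 1 when any other single array was left out). For the 32 genes of these lists and of the other subunits that were named by rule, 508 of 541 alternative values kept their direction and side of the threshold. With array weights Tfec was at 0.0021. With each array left out the differences ran from -0.29 to 0.085 for Tfec, -0.33 to 0.013 for Tfeb, -0.029 to 0.039 for Rac1 and -0.051 to 0.41 for Cyba, so their directions turned; the cause was not tested.

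No pairing by replicate number was seen over all genes: arrays with the same number had deviations correlated at -0.03, -0.03, 0.08 and -0.02. With 4 arrays per group, such values cannot exclude a pairing. With the replicate number as a block, 187 of all genes, 1 subunit and 1 gene of the other lists were called. The limits are 4 pools per group, the spread of transgenic replicate 4 and dim signals, as for Atp6v0d2 and Galc.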
